A study of Mus musculus with 14 samples.

Results

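The 46 genes described here encode proteins that license and copy DNA, drive cells from one cell cycle phase to the next, and build the mitotic spindle. They were taken by name, and each was read by 1 probe, the brightest by its mean over all 14 arrays when a gene had several. Probes named 43 of the 46 genes, among 13869 named genes on the array. No probe named Ccnb1, Ccnb2 or Cenpe. In a dividing cell, cyclins activate cyclin-dependent kinases, E2F factors then switch on the genes of S phase, and FOXM1 and B-MYB complexes switch on the genes of G2 and mitosis. Most cells of an adult lung rest outside the cycle. Dividing cells, among them immune cells, are a possible source of these transcripts, but their source was not measured. In whole-lung RNA, fewer cells of a kind and less RNA per cell cannot be told apart.

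Lung RNA came from adult mice of the C57/BL6 background, each on its own single-colour CodeLink array. In the wild type there were 3 controls and 4 ventilated mice, and there were as many of each kind among jnk1-/- mice. The jnk1-/- mice lack the stress kinase JNK1 in every tissue. Ventilated mice received tidal volumes of 10 ml/kg with a PEEP of 2 cmH2O for 8 h under anaesthesia and muscle relaxation. Controls were killed as soon as they were anaesthetized, so time under anaesthesia differs along with ventilation. The comparisons ask whether the cell cycle genes changed with ventilation in each genotype, and whether the genotypes differed.

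Array medians after normalization lay between 5.76 and 5.84 on the log2 scale, and precision is limited by there being 3 or 4 arrays in a group. Wild-type control replicates 2 and 3 had 10.7% and 6.98% of their probes at the lowest deposited value, more than any other array. The 7 measured type 2 pneumocyte markers, such as Sftpb, had medians between 9.81 and 11.39 on all arrays. The probe of Mapk8, which encodes JNK1, checks the genotype little, since 6 jnk1-/- arrays and 3 wild-type arrays lay at the lowest value of the authors' table. Without ventilation, Mapk8 was at −1.48 in jnk1-/- relative to wild-type lungs (standard error 0.88; adjusted p = 0.370 in limma). All 3 jnk1-/- control lungs also carried transcripts of other tissues. Of 13 skeletal muscle genes, 12 were higher in them than in wild-type controls, with a summed linear intensity of 8919 to 12941 against 562 to 624. Of 16 stratified squamous epithelium genes, 9 were higher, with sums of 4826 to 9698 against 653 to 862. The paper reports cytoskeleton and muscle contraction genes as higher in unventilated jnk1-/- mice. Tissue carried over and expression in the lung itself were not told apart.

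Many cell cycle transcripts were dim in lung. The authors' own normalized table has a floor at 3.12 on the log2 scale, which holds 24.5% of its values. Of the 43 measured genes, 28 lay above this floor on every array, 9 were at it on 1 to 9 arrays, and 6 on 10 or more. Those 6 were Plk1, Ccne2, Mcm7, Rrm1, Aurka and Kif20a, and Ccne2 was at the floor on 14 of 14 arrays. The means of 16 genes lay above the median of all probes. No filter on low values was applied, so all 43 genes stayed in each test.

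After ventilation, most cell cycle transcripts were lower in both genotypes, by amounts that mostly did not pass the test for a single gene. In wild-type lungs 30 of 43 differences were below 0, with a median of −0.40 on the log2 scale, while the median over all probes was 0.08 and 43.7% of all probes were below 0. In jnk1-/- lungs 34 of 43 were below 0, with a median of −0.49, against −0.04 and 52.6% for all probes. In wild-type lungs, none of the 43 genes passed an adjusted p of 0.05 in limma, where 3.7% of all probes passed, 1.5% as lower and 2.2% as higher. At an unadjusted p under 0.05 it was 8 genes, or 18.6%, against 20.3% of all probes. In jnk1-/- lungs 3 genes fell and none rose, or 6.98% of the genes, against 5.01% of all probes that fell, 6.73% that rose and 11.7% that changed at all. At an unadjusted p under 0.05 it was 15 genes, or 34.9%, against 26.7% of all probes. For the mean of the ventilation effects of both genotypes, which uses all 14 arrays, 7 genes fell and none rose. That is 16.3% of the genes, against 7.23% of all probes that fell, 8.67% that rose and 15.9% that changed at all. At an unadjusted p under 0.05 it was 16 genes, or 37.2%, against 30.4% of all probes, and 33 of 43 mean effects were below 0, against 47.3% of all probes. The 95% interval of a gene's difference extended by a median of 0.78 to either side within 1 genotype. For the mean effect it extended by 0.55. These intervals are not adjusted for the number of probes, so larger changes could also miss the threshold. In simulated data a log2 change of 1 was recovered for 16%, 14% and 38% of probes (wild type, jnk1-/-, mean effect). The simulation changed 200 of 19621 probes, fewer than the 726, 2303 and 3120 that passed in these comparisons. With fewer changed probes the adjusted threshold is stricter, so these shares may be too low for the data themselves.

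**Figure D1:**
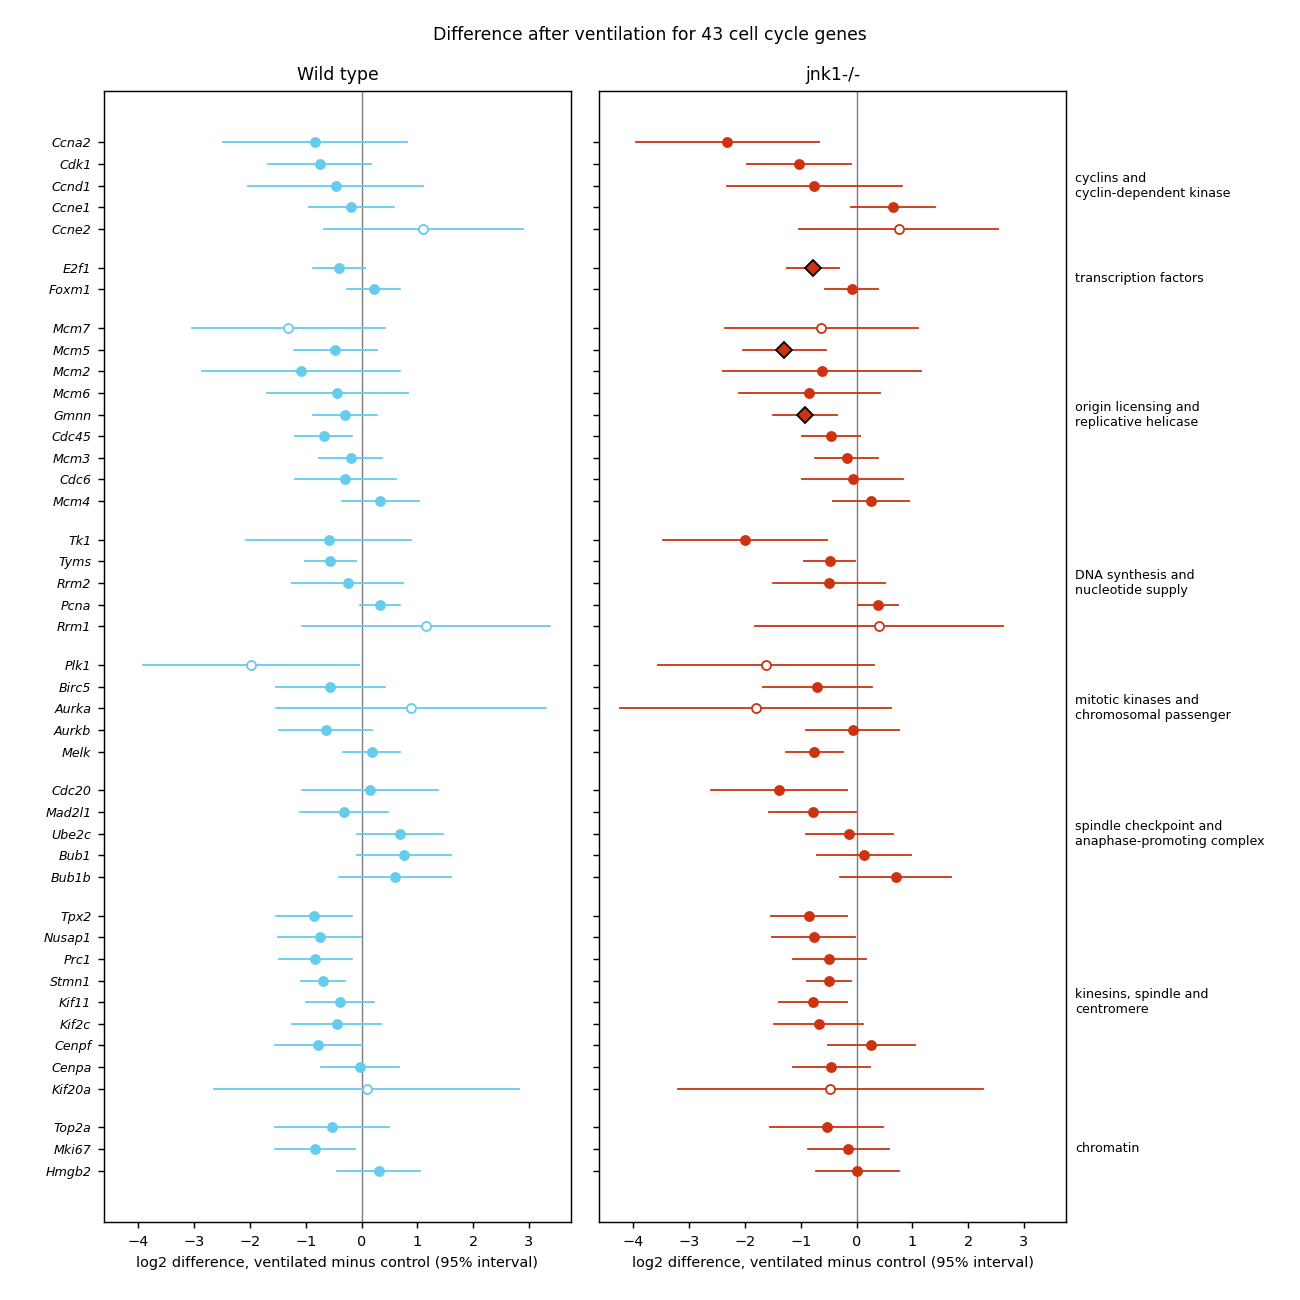
log2 difference between ventilated and control lungs for each of the 43 measured genes, by role, in wild-type mice (left) and jnk1-/- mice (right), with 95% intervals from limma. Diamonds mark an adjusted p under 0.05, open symbols mark genes at the authors' floor on 10 or more arrays. Points lie left of 0 for 30 genes in wild-type and 34 in jnk1-/- lungs, and the 3 diamonds are E2f1, Mcm5 and Gmnn in jnk1-/- lungs.

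The 7 genes that fell in the mean effect were Stmn1, E2f1, Tpx2, Mcm5, Tyms, Cdc45 and Gmnn. Leaving out 1 array at a time left between 2 and 11 genes. It was 2 without jnk1-/- control replicate 1, 3 without wild-type control replicate 3, wild-type ventilated replicate 1 or jnk1-/- control replicate 2, and 4 without wild-type control replicate 2, wild-type ventilated replicate 2 or 4 or jnk1-/- ventilated replicate 2. Without jnk1-/- ventilated replicate 3 it was 11, and without wild-type control replicates 2 and 3 together, 1. Of 24 alternatives, Stmn1 kept its call in 24, E2f1 in 21, Tpx2 in 19, Mcm5 in 15, Cdc45 and Tyms in 12 each and Gmnn in 10. The calls within jnk1-/- lungs held in 10 of 18 alternatives for Mcm5 and in 9 of 18 for E2f1 and for Gmnn.

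E2F1 is the transcription factor that turns on genes of DNA synthesis. E2f1 had log2 intensities of 6.44, 6.78 and 6.77 in wild-type controls and 5.90, 6.25, 6.07 and 6.81 in ventilated wild-type lungs. In jnk1-/- controls it had 6.54, 6.55 and 6.73, and in ventilated jnk1-/- lungs 5.66, 5.86, 6.03 and 5.76. The jnk1-/- groups did not overlap, while in the wild type replicate 4 of the ventilated lungs lay at the level of the controls. E2f1 fell by 0.78 in jnk1-/- lungs (standard error 0.21, adjusted p = 0.035 from limma), and the difference was −0.40 in the wild type (standard error 0.21, adjusted p = 0.320). The mean effect was −0.59 (standard error 0.15, adjusted p = 0.020). Foxm1, the factor of the G2 and mitosis genes, had differences of 0.22 and −0.09 in wild-type and jnk1-/- lungs, with an adjusted p = 0.642 and an adjusted p = 0.852 from limma.

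The 9 genes of origin licensing and the replicative helicase were below 0 in 8 cases in each genotype, with medians of −0.43 in wild-type and −0.62 in jnk1-/- lungs. MCM5 is a subunit of the ring of MCM2 to MCM7 that unwinds DNA at the fork. Mcm5 had log2 intensities of 5.98, 5.20 and 5.33 in wild-type controls and 4.53, 4.80, 5.55 and 5.24 in ventilated wild-type lungs. Its jnk1-/- values were 6.19, 6.24 and 5.62 in controls and, in ventilated lungs, 5.05, 4.54, 5.25 and 4.04. The wild-type groups overlapped and the jnk1-/- groups did not. Mcm5 fell by 1.30 in jnk1-/- lungs (standard error 0.34, adjusted p = 0.030 from limma), and its difference in the wild type was −0.47 (standard error 0.34, adjusted p = 0.481).

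CDC45 joins the MCM ring to form the active helicase. Cdc45 had log2 intensities of 5.17, 5.26 and 5.61 in wild-type controls and 4.71, 4.51, 4.92 and 4.52 in ventilated wild-type lungs. The jnk1-/- controls had 4.84, 4.99 and 4.64 and the ventilated jnk1-/- lungs 3.87, 4.75, 4.71 and 4.14. Here the wild-type groups were apart and the jnk1-/- groups overlapped, and the mean effect was −0.57 (standard error 0.17, adjusted p = 0.038 from limma), a call lost in 12 of 24 alternatives. Geminin, the product of Gmnn, binds CDT1 and keeps origins from being licensed again. Gmnn had 8.11, 7.37 and 7.52 in wild-type controls and 7.40, 7.26, 7.46 and 7.33 in ventilated wild-type lungs, which overlapped. In jnk1-/- controls it had 7.98, 8.13 and 7.33, and in ventilated jnk1-/- lungs 6.45, 6.98, 7.35 and 6.74, where control replicate 3 and ventilated replicate 3 met. Gmnn fell by 0.93 in jnk1-/- lungs (standard error 0.26, adjusted p = 0.041 from limma). Mcm4, a subunit of the same ring as Mcm5, had positive differences of 0.34 and 0.26 (adjusted p = 0.609 and adjusted p = 0.683), and its wild-type groups did not overlap. Mcm2 and Mcm7 lay at the authors' floor on 7 and 13 arrays, Mcm6 on 1, and Mcm3 and Cdc6 had mean effects of −0.18 each, far from the threshold.

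Of the 5 genes of DNA synthesis and nucleotide supply, Tyms fell in the mean effect. Thymidylate synthase makes the thymidine nucleotide of DNA. Tyms had log2 intensities of 7.70, 7.97 and 7.73 in wild-type controls and 7.12, 7.39, 7.42 and 7.02 in ventilated wild-type lungs, with no overlap. Its jnk1-/- values were 8.02, 7.73 and 7.29 in controls and, in ventilated lungs, 6.98, 7.05, 7.54 and 7.22, where ventilated replicate 3 lay above control replicate 3. The mean effect for Tyms was −0.52 (standard error 0.15, adjusted p = 0.033 from limma). This call was lost in 12 of 24 alternatives. Pcna, which encodes the sliding clamp of DNA polymerase and is also used in DNA repair, went the other way. It had 10.44, 10.32 and 10.09 in wild-type controls, 10.45, 10.55, 10.64 and 10.82 in ventilated wild-type lungs, 10.36, 10.21 and 10.54 in jnk1-/- controls, and 10.90, 10.54, 10.88 and 10.68 in ventilated jnk1-/- lungs. In both genotypes no ventilated lung lay below a control lung, with a mean effect of 0.36 (standard error 0.12, adjusted p = 0.059 by limma). With the values that the authors normalized, Pcna passed the threshold at an adjusted p = 0.016. Thymidine kinase, Tk1, had a difference of −2.0 in jnk1-/- lungs (standard error 0.67, adjusted p = 0.077), with 3 of the 4 ventilated arrays at the authors' floor and the other just above it, so its size is not settled.

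The promoters of the genes that fell are shown because E2F factors and the complexes of the late cycle genes act there. The RefSeq promoter table of the GRCm38.p6 assembly, which gives the 250 bases before a gene's start and 50 after it, held 4 of the 7 genes that fell. Capitals mark 4 motifs searched on both strands: the CHR element (TTTGAA or TTCGAA), the CCAAT box (CCAAT), E2F sites (TTTCCCGC, TTTGGCGC, TTTCGCGC, TTCCCGCC or TTGGCGCC) and the GC box (GGGCGG). E2f1 is at chr2:154569377-154569676 on the minus strand, Mcm5 at chr8:75109259-75109558 on the plus strand, Tyms at chr5:30073576-30073875 on the minus strand and Cdc45 at chr16:18811923-18812222 on the minus strand, each written 5′ to 3′ along the gene.
E2f1: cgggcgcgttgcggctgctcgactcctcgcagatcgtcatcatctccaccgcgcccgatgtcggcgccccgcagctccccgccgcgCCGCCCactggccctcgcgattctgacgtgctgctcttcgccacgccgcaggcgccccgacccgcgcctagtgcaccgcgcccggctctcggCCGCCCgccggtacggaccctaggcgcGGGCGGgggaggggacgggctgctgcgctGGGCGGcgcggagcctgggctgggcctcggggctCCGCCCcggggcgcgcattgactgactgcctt
Mcm5: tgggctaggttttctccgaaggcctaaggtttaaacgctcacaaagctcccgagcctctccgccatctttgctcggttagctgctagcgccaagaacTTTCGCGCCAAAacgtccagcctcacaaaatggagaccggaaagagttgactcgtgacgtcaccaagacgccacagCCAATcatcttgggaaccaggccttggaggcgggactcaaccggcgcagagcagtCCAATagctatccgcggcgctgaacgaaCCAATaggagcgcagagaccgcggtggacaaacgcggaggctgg
Tyms: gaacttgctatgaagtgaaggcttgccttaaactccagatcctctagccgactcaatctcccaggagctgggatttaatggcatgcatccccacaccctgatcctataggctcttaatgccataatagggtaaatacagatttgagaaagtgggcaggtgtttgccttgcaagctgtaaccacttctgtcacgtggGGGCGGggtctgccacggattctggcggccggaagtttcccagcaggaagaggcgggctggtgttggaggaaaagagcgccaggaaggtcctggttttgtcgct
Cdc45: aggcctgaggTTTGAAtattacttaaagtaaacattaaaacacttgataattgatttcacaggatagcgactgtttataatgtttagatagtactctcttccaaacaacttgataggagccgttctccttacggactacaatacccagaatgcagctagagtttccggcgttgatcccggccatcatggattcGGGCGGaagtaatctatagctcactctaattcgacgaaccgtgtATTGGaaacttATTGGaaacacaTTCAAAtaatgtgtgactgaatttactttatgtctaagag

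The Mcm5 promoter held 3 CCAAT boxes and 2 E2F matches that overlap on opposite strands. The stretch listed for E2f1 held 5 GC boxes and no other match. Its first part reads in frame as E2F1 protein, so it begins inside coding sequence. Motifs upstream of that coding sequence were not searched. The Tyms promoter held 1 GC box, and the Cdc45 promoter 2 CHR elements, 2 CCAAT boxes and 1 GC box. Over the 35 promoters of 33 measured cell cycle genes, 19 held a CHR element (54.3%, against 19.2% of all 32851 promoters in the table) and 25 a CCAAT box (71.4% against 37.4%). An E2F match was in 7 (20% against 4.04%) and a GC box in 28 (80.0% against 35.7%). Several E2F letters overlap one another, so 1 place can match more than 1 of them. These are matches of letters and no measure of binding.

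The 5 measured cyclins and cyclin-dependent kinase gave no call. Ccna2 encodes cyclin A2, which drives S phase and entry into mitosis. It had log2 intensities of 5.52, 5.54 and 5.31 in wild-type controls and 3.74, 3.87, 6.46 and 4.41 in ventilated wild-type lungs. The jnk1-/- controls had 5.48, 5.47 and 4.33 and the ventilated jnk1-/- lungs 2.00, 1.69, 4.74 and 2.66, of which 3 were at the authors' floor. In both genotypes replicate 3 of the ventilated lungs lay far above the others. The difference was −0.83 in the wild type (standard error 0.75, adjusted p = 0.595 from limma) and −2.31 in jnk1-/- lungs (standard error 0.75, adjusted p = 0.068). Cdk1, the mitotic kinase that cyclins A and B activate, had differences of −0.75 and −1.03 with an adjusted p = 0.354 and an adjusted p = 0.138. Cyclin D1, Ccnd1, couples growth signals to the cycle and lay at the floor on 5 arrays, with differences of −0.47 and −0.75 that did not pass. Ccne1, the cyclin of S phase entry, had differences of −0.18 and 0.66 and did not pass either.

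The 9 genes of kinesins, spindle and centromere had medians of −0.70 in wild-type and −0.49 in jnk1-/- lungs, and all 9 were below 0 in the mean effect. Stathmin, the product of Stmn1, destabilizes microtubules and is abundant in dividing cells and in lymphocytes. Stmn1 had log2 intensities of 9.75, 9.25 and 9.39 in wild-type controls and 8.54, 8.97, 8.73 and 8.83 in ventilated wild-type lungs. In jnk1-/- controls it had 9.46, 9.74 and 9.59, and in ventilated jnk1-/- lungs 9.04, 8.90, 9.33 and 9.18. The groups were apart in both genotypes. Among the measured cell cycle genes described here that fell in the mean effect, no other showed this. The difference was −0.70 in the wild type (standard error 0.18, adjusted p = 0.054 from limma) and −0.49 in jnk1-/- lungs (standard error 0.18, adjusted p = 0.104), and the mean effect was −0.59 (standard error 0.13, adjusted p = 0.0092). Over the alternatives tried, the adjusted p of this mean effect lay between 0.0035 and 0.044.

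TPX2 activates Aurora A kinase on the spindle. Tpx2 had log2 intensities of 5.93, 6.21 and 5.38 in wild-type controls and 4.73, 4.64, 5.69 and 4.87 in ventilated wild-type lungs, where ventilated replicate 3 lay among the controls. Its jnk1-/- values were 5.77, 5.36 and 5.22 in controls and, in ventilated lungs, 4.98, 4.34, 4.91 and 4.17, with no overlap. The mean effect for Tpx2 was −0.85 (standard error 0.22, adjusted p = 0.022 from limma). Nusap1 and Prc1 bundle microtubules of the spindle and of its midzone. Nusap1 had 7.81, 8.05 and 7.49 in wild-type controls, 7.35, 6.35, 7.33 and 7.09 in ventilated wild-type lungs, 7.58, 7.45 and 6.55 in jnk1-/- controls, and 6.63, 6.67, 6.68 and 5.72 in ventilated jnk1-/- lungs. Prc1 had 7.99, 8.40 and 7.80, then 7.25, 7.15, 7.63 and 6.91, then 7.66, 7.82 and 7.0, and 7.41, 6.51, 7.46 and 6.64 in the same 4 groups. Both were apart in the wild type and overlapped in jnk1-/- lungs. Their mean effects of −0.76 and −0.66 missed the threshold, with an adjusted p = 0.052 and an adjusted p = 0.056 from limma. Kif11, the motor that pushes spindle poles apart, had a mean effect of −0.58 (standard error 0.20, adjusted p = 0.068).

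**Figure D2:**
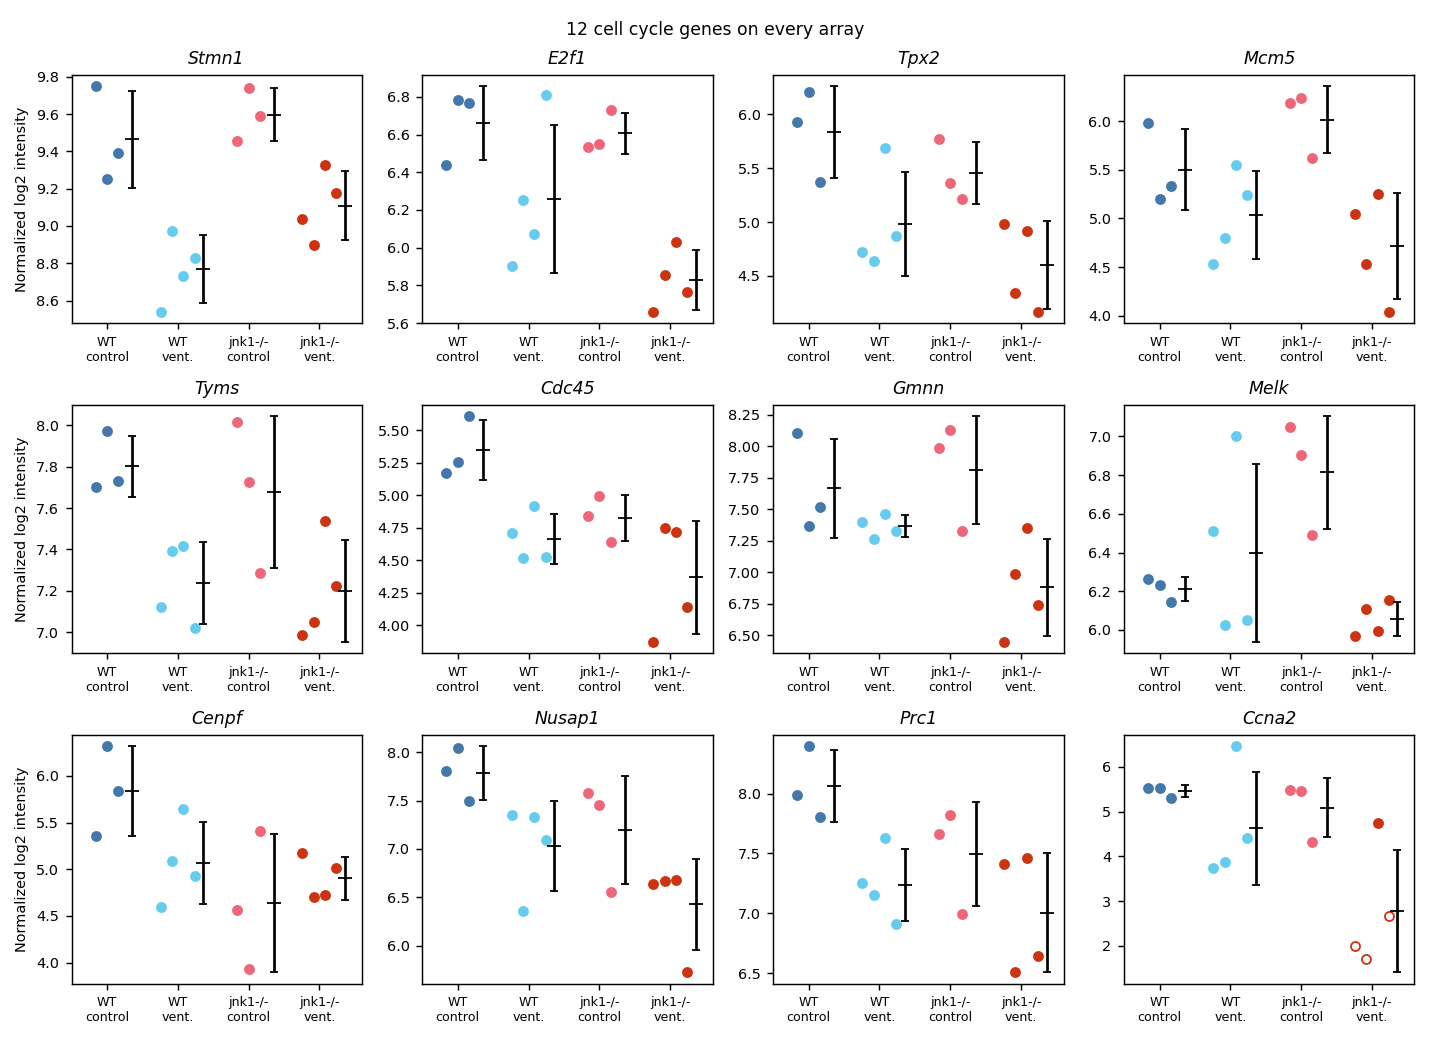
Normalized log2 intensity on every array for the 7 genes with an adjusted p under 0.05 and the 5 with the next lowest unadjusted p. Points are arrays in replicate order, open points are at the authors' floor, and black bars give the mean ± SD (n = 3 controls and 4 ventilated lungs per genotype). Stmn1 is apart between control and ventilated lungs in both genotypes, from 8.54 to 8.97 against 9.25 to 9.75 in the wild type.

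Cenpf, a kinetochore protein of G2 and mitosis, had log2 intensities of 5.36, 6.32 and 5.84 in wild-type controls, 4.60, 5.09, 5.65 and 4.92 in ventilated wild-type lungs, 4.56, 3.94 and 5.41 in jnk1-/- controls, and 5.17, 4.70, 4.72 and 5.01 in ventilated jnk1-/- lungs. Its differences were −0.77 in the wild type and 0.27 in jnk1-/- lungs, and the difference between these effects was 1.04 (standard error 0.50, adjusted p = 0.410 from limma). Of the mitotic kinases, Melk, a kinase found in dividing and progenitor cells, had a difference of 0.19 in the wild type and was lower in every ventilated than in every control jnk1-/- lung. It had 6.26, 6.23 and 6.14 in wild-type controls, 6.51, 6.02, 7.0 and 6.05 in ventilated wild-type lungs, 7.05, 6.90 and 6.49 in jnk1-/- controls, and 5.97, 6.11, 5.99 and 6.15 in ventilated jnk1-/- lungs. The jnk1-/- difference of −0.76 had a standard error of 0.23 and an adjusted p = 0.056 from limma, and the difference between the effects was −0.94 (standard error 0.33, adjusted p = 0.264). Birc5, or survivin, and Aurkb, partners in the chromosomal passenger complex, had mean effects of −0.63 and −0.35 that did not pass. Plk1 and Aurka lay at the authors' floor on 12 arrays each.

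The 5 spindle checkpoint and anaphase-promoting complex genes had a positive median in the wild type, 0.60, and one of −0.13 in jnk1-/- lungs, with no call. Bub1, a checkpoint kinase, had differences of 0.76 and 0.14, and Ube2c, the ubiquitin-conjugating enzyme of the anaphase-promoting complex, 0.69 and −0.13. Cdc20, which activates that complex, had differences of 0.15 and −1.39 (standard error 0.56 each), and its jnk1-/- groups did not overlap. The markers most used to count dividing cells did not pass either. Mki67 had differences of −0.84 in the wild type (standard error 0.33, adjusted p = 0.175 from limma) and −0.15 in jnk1-/- lungs (adjusted p = 0.837), and Top2a, the topoisomerase that untangles replicated DNA, −0.53 and −0.54. Hmgb2, a chromatin protein, had 0.30 and 0.01.

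Groups without overlap were counted as well. In wild-type lungs 6 genes were lower on every ventilated than on every control array, or 14.0%, against 10.5% of all probes, and 2 were higher, or 4.65%, against 11.3%. The 6 were Cdc45, Tyms, Plk1, Nusap1, Prc1 and Stmn1, and the 2 were Mcm4 and Pcna. In jnk1-/- lungs 9 genes were lower, or 20.9%, against 11.2% of all probes, and 1, Pcna, was higher, or 2.33%, against 12.3%. The 9 were Ccnd1, E2f1, Mcm5, Tk1, Melk, Cdc20, Kif11, Tpx2 and Stmn1. The wild-type counts were thus near or below the background and the lower jnk1-/- count was above it.

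Replicate 3 of the ventilated wild-type lungs stood apart. The median of the 43 genes was 6.07 on its array, against 5.15, 5.09 and 5.23 on the other ventilated wild-type arrays and 5.76, 5.75 and 5.54 in wild-type controls. Among the 28 genes above the floor on every array, 20 were highest on this array of the 4, or 71.4%, while 26.3% of all probes were highest there. Rrm2, the regulated subunit of ribonucleotide reductase, had 6.51 there and between 4.50 and 4.72 on the others, and Top2a had 6.73 against 4.93 to 5.51. Mki67 had 8.32 against 7.14 to 7.40, and Mcm6 7.15 against 4.83 to 5.27. E2f1, Stmn1 and Pcna lay within the range of the other 3 arrays. The summed linear intensity of T and NK cell markers was 974 on this array and 539 to 757 on the others, that of B cell markers 1202 against 830 to 1067, and that of neutrophil markers 32532 against 19513 to 24094. The part of these cells in its cell cycle levels was not tested. Without this array the median wild-type difference was −0.62 in place of −0.40, still with no gene past the threshold, and 10 genes fell in the mean effect. The jnk1-/- medians were 5.77, 5.47 and 5.22 in controls and 5.32, 5.08, 4.99 and 4.63 in ventilated lungs, which overlapped through control replicate 3 and ventilated replicate 1. That jnk1-/- control replicate 3 stood apart in the other direction. Of the same 28 genes, 20 were lowest on it among the 3 jnk1-/- controls, or 71.4%, while 41.0% of all probes were lowest there. Without it the median jnk1-/- difference after ventilation was −0.67 in place of −0.49, with 3 genes past the threshold. The median difference between the controls turned from −0.08 to 0.05, and in the mean effect 9 genes fell and 1 rose.

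The 3 calls in jnk1-/- lungs rested on few arrays. No gene passed without jnk1-/- control replicate 1 or 2 or without jnk1-/- ventilated replicate 2 or 4, 1 passed without ventilated replicate 1, and 6 passed without ventilated replicate 3. The skeletal muscle and squamous genes of the jnk1-/- controls moved in the same comparison: 13 of 13 muscle genes and 10 of 16 squamous genes were lower after ventilation. Their part in the jnk1-/- differences of the cell cycle genes was not tested.

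Between the genotypes no cell cycle gene passed the threshold. In controls, the median difference of jnk1-/- minus wild type was −0.08, against 0.09 for all probes, and 0 of 43 genes passed, where 4.06% of all probes did. At an unadjusted p under 0.05, 3 genes differed, or 6.98%, against 20.5% of all probes: Mki67 by −1.05 (standard error 0.35), Cenpf by −1.20 (standard error 0.38) and Melk by 0.60 (standard error 0.25). Without overlap between the controls, 4 genes (Mcm6, Cdc45, Plk1 and Mki67) were lower in jnk1-/- lungs, or 9.30%, against 13% of all probes, and 3 (Tk1, Melk and Ube2c) were higher, or 6.98%, against 13.6%. After ventilation the median difference was −0.31, against −0.02 for all probes, again with 0 of 43 genes past the threshold and 0.525% of all probes, and with 3 genes at an unadjusted p under 0.05, or 6.98%, against 10.1% of all probes. Mcm6 was lower on every jnk1-/- ventilated array, between 3.14 and 4.70, than on every wild-type one, between 4.83 and 7.15, a difference of −1.46 (standard error 0.54, adjusted p = 0.373 from limma). It was the only gene without overlap in that direction and Ccne1 the only one in the other, or 2.33% each, against 3.25% and 3.08% of all probes. For the difference of the ventilation effect the median was −0.24, with 0 genes past the threshold, against 0.398% of all probes, and 1 (Melk) at an unadjusted p under 0.05, against 12.9% of all probes. Without wild-type ventilated replicate 3 the median after ventilation was −0.14 and the median difference of the effect turned to 0.06. The 95% interval of the latter extended by a median of 1.11 to either side for a gene. It is not adjusted for the number of probes, so larger differences between the genotypes could also miss the threshold. The comparisons share arrays, and their lists are given side by side without a test of overlap.

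The other genes of replication and mitosis had differences of the same sign more often than not. Of 40 other replication genes, 28 were below 0 in wild-type and 31 in jnk1-/- lungs, with medians of −0.31 and −0.49. In wild-type lungs none passed, where 3.7% of all probes did. In jnk1-/- lungs 3 fell (7.5%) and 1 rose (2.5%), against 5.01% and 6.73% of all probes. In the mean effect 5 fell (12.5%) and 1 rose (2.5%), against 7.23% and 8.67%. Dut, the enzyme that keeps uracil out of DNA, had mean values of 8.25 and 7.59 in wild-type control and ventilated lungs and 8.52 and 7.19 in jnk1-/- ones. It fell by 1.33 in jnk1-/- lungs (adjusted p = 0.0059 from limma) and by 0.99 in the mean effect (adjusted p = 0.0030), a call it kept in all 24 alternatives. Rpa3, of the protein that coats single-stranded DNA, fell by 0.82 in the mean effect and Rfc2, of the clamp loader, by 0.73 (adjusted p = 0.011 and adjusted p = 0.023). Timeless, a replication fork protein, rose by 1.04 (adjusted p = 0.024). Between controls, Pole2, a subunit of DNA polymerase epsilon, was higher in jnk1-/- lungs by 0.89 (standard error 0.21, adjusted p = 0.040). Its call was lost in 11 of 18 alternatives.

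Of 46 other mitosis genes, 31 and 34 were below 0, with medians of −0.24 and −0.44. None passed in wild-type lungs, where 3.7% of all probes did. In jnk1-/- lungs 3 fell (6.52%) and 2 rose (4.35%), against 5.01% and 6.73% of all probes. In the mean effect 8 fell (17.4%) and 1 rose (2.17%), against 7.23% and 8.67%. Ncapd2, a condensin subunit, fell by 0.80 and Kif18b, a kinesin, by 0.77 in the mean effect (adjusted p = 0.0046 and adjusted p = 0.011 from limma). Lmnb1, or lamin B1 of the nuclear envelope, rose by 0.70 (adjusted p = 0.0035). Pttg1, or securin, which holds back the separation of sister chromatids, had log2 intensities of 7.59, 7.70 and 7.87 in wild-type controls and 6.45, 6.71, 6.67 and 6.97 in ventilated wild-type lungs. The jnk1-/- controls had 6.02, 6.17 and 7.03 and the ventilated jnk1-/- lungs 0.97, −0.63, 3.32 and 3.31, with the lower pair at the authors' floor and the upper pair just above it. Ventilated and control groups were apart in both genotypes. Pttg1 fell in jnk1-/- lungs, with a difference of −4.66 (standard error 0.78, adjusted p = 0.0037 from limma), and was lower in ventilated jnk1-/- than in ventilated wild-type lungs, with a difference of −4.96 (standard error 0.72, adjusted p = 0.0082). Their sizes depend on values near background: in the authors' table, with its higher floor, they were −2.97 and −3.27. Both calls were lost with the methods' t-test and in a fit of the compared groups alone, and the second also with limma's fast cyclic loess. In the wild type its difference was −1.02 (standard error 0.78, adjusted p = 0.511), and the difference between the effects was −3.64 (standard error 1.10, adjusted p = 0.200). Kif23, a kinesin of cytokinesis, was at the authors' floor on 10 arrays. All 7 jnk1-/- arrays were among them, so its calls are differences between values near background. The difference of −3.02 between jnk1-/- and wild-type controls was −0.41 in the authors' table and −1.03 with a floor at the 10th percentile, and 8 of 17 alternatives lost the call. The difference of 2.28 after ventilation in jnk1-/- lungs was absent in the authors' table, where these arrays share the floor, and 0.30 with the higher floor. Ckap5 and Tubb5, of the microtubules, were higher in jnk1-/- controls by 1.03 and 1.09, and Ckap5 fell by 0.91 after ventilation in jnk1-/- lungs. The calls between controls were lost in 11 of 18 alternatives for Ckap5 and in 9 of 18 for Tubb5. That of Ckap5 after ventilation was lost in 4 of 18.

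**Figure D3:**
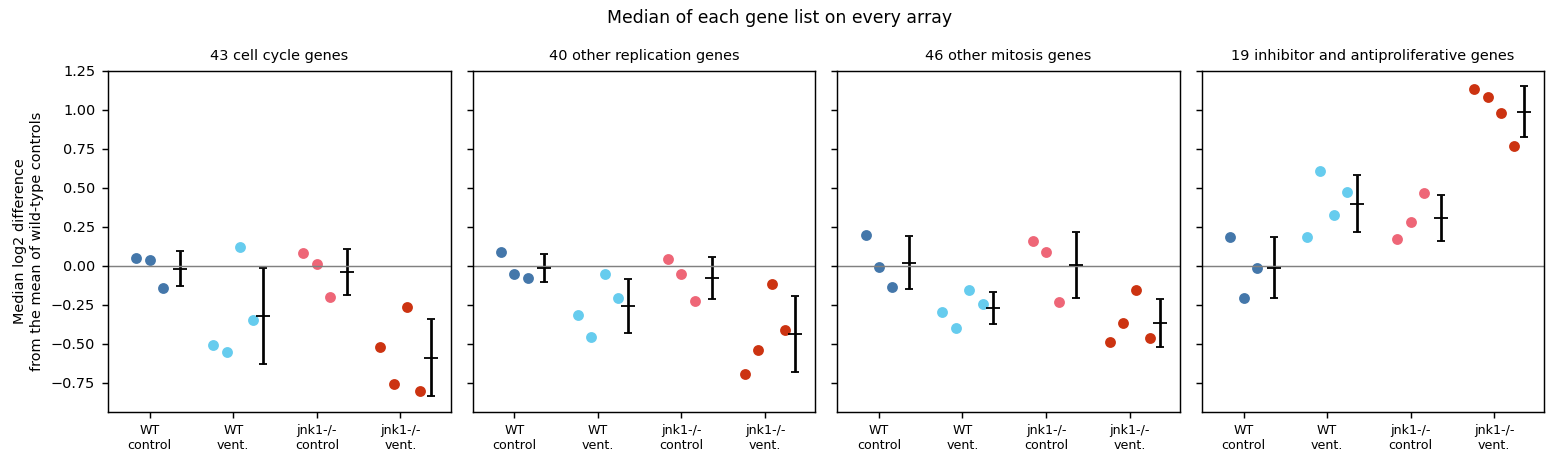
Median over the genes of a list of the log2 difference from the mean of the wild-type controls, 1 point per array in replicate order, with mean ± SD (n = 3 controls and 4 ventilated lungs per genotype). Medians of the 43 cell cycle genes are lowest in ventilated jnk1-/- lungs, from −0.80 to −0.27, and wild-type ventilated replicate 3 stands at 0.12.

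Genes on a list of cell cycle inhibitors and antiproliferative genes were more often higher than lower after ventilation. The list also holds genes with broader roles, such as Mdm2, Gas6 and Ddit3. Of 19 cyclin-dependent kinase inhibitors and antiproliferative genes, 3 rose and none fell in wild-type lungs (Gadd45g, Cdkn1a and Gadd45a). That is 15.8%, against 2.2% of all probes that rose. In jnk1-/- lungs 6 rose (31.6%) and 2 fell (10.5%), against 6.73% and 5.01% of all probes. In the mean effect 7 rose (36.8%) and 1 fell (5.26%), against 8.67% and 7.23%. The medians of the 19 genes were 0.51 and 0.50 in the 2 genotypes. The list holds Gadd45a, which the study picked on these same arrays, and Gadd45g, which the paper also lists as changed on them. The count of this list is therefore not independent evidence of a direction. Cdkn1a, or p21, blocks cyclin-dependent kinases and binds PCNA. It had log2 intensities of 6.27, 7.0 and 5.64 in wild-type controls and 10.11, 10.31, 10.71 and 9.94 in ventilated wild-type lungs. In jnk1-/- controls it had 6.12, 4.94 and 7.89, and in ventilated jnk1-/- lungs 10.74, 11.55, 9.11 and 9.71. Cdkn1a rose by 3.96 in the wild type (standard error 0.68, adjusted p = 0.0095 from limma), and by the same amount in jnk1-/- lungs (standard error 0.68, adjusted p = 0.0044).

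GADD45 proteins act in growth arrest and the response to DNA damage. Gadd45a had 8.33, 8.51 and 8.43 in wild-type controls, 9.53, 9.41, 9.72 and 9.39 in ventilated wild-type lungs, 8.46, 8.51 and 8.94 in jnk1-/- controls, and 11.06, 10.88, 10.01 and 10.76 in ventilated jnk1-/- lungs. All ventilated jnk1-/- values lay above all others. It rose by 1.09 and 2.04 in the 2 genotypes and was higher in jnk1-/- than in wild-type ventilated lungs by 1.16 (standard error 0.22, adjusted p = 0.041 from limma), while the difference of the effect was 0.95 (standard error 0.34, adjusted p = 0.264). The call between ventilated lungs was lost in 11 of 19 alternatives. For Gadd45a the wild-type rise lost its call in 10 of 19, and the jnk1-/- rise kept it in 17 of 18. Gadd45g rose by 2.19 and 1.92 (adjusted p = 0.0025 and adjusted p = 0.0018). Gas1, a growth arrest gene, fell by 2.27 in jnk1-/- lungs and had a difference of −1.42 in the wild type that did not pass.

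Of 55 other cell cycle regulators, 1 rose (1.82%) and none fell in wild-type lungs, against 2.2% of all probes that rose. In jnk1-/- lungs 3 rose (5.45%) and 2 fell (3.64%), against 6.73% and 5.01% of all probes. In the mean effect 5 rose and 5 fell (9.09% each), against 8.67% and 7.23%, so these counts were near the background. The medians of the 55 genes were −0.06 in each genotype. Myc, which promotes growth and entry into the cycle, had log2 intensities of 3.85, 4.25 and 4.44 in wild-type controls and 5.53, 6.41, 6.61 and 6.53 in ventilated wild-type lungs. Its jnk1-/- values were 5.18, 5.47 and 4.81 in controls and, in ventilated lungs, 7.36, 6.86, 6.80 and 7.48. Myc rose by 2.09 in the wild type (standard error 0.30, adjusted p = 0.0039 from limma) and by 1.97 in jnk1-/- lungs (standard error 0.30, adjusted p = 0.0021). Its partner Max rose by 1.84 in jnk1-/- lungs and by 1.29 in the mean effect (adjusted p = 0.0092 and adjusted p = 0.0067). Cdk4, the kinase that cyclin D activates, fell by 1.13 in jnk1-/- lungs and by 0.86 in the mean effect (adjusted p = 0.020 and adjusted p = 0.010), and Anapc13, of the anaphase-promoting complex, fell by 0.64 and 0.55.

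**Figure D4:**
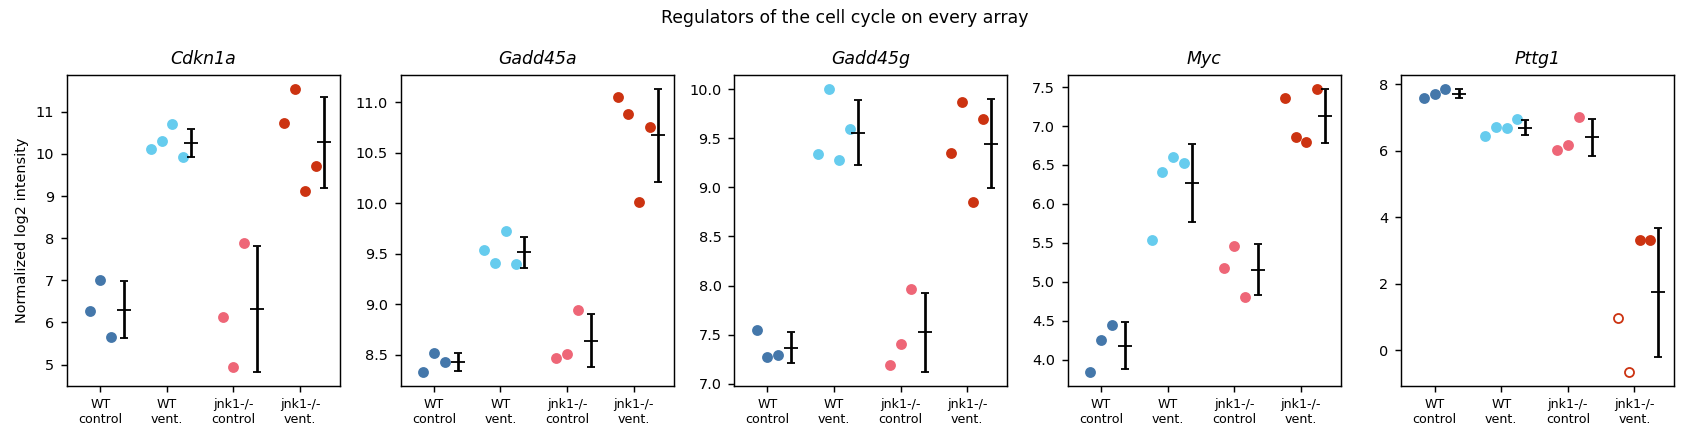
Normalized log2 intensity on every array for Cdkn1a, Gadd45a, Gadd45g, Myc and Pttg1. Points are arrays in replicate order, open points are at the authors' floor, and black bars give the mean ± SD (n = 3 controls and 4 ventilated lungs per genotype). Cdkn1a lies between 4.94 and 7.89 in control lungs and between 9.11 and 11.55 in ventilated lungs.

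Markers of immune cells, some of which divide in lung, moved in the same comparisons. Of 9 B cell genes, 3 were lower and none higher in wild-type lungs and 5 were lower and none higher in jnk1-/- lungs, with medians of −1.53 and −1.41. Their summed linear intensity was 1737 to 3428 in wild-type controls and 830 to 1202 after ventilation, and 2416 to 5700 and 722 to 973 in jnk1-/- lungs. Ms4a1, or CD20, fell by 3.49 and 3.24 and Cd79b, of the B cell receptor, by 1.78 and 1.41. Of 10 T and NK cell genes, 1 was higher in wild-type lungs and 3 were lower in jnk1-/- lungs, with medians of −1.30 and −1.74. Their sums were 1047 to 1305 and 539 to 974 in the wild type, and 1441 to 1795 and 498 to 873 in jnk1-/- lungs. Of 14 neutrophil genes, 7 were higher in wild-type lungs, while 6 were higher and 1 lower in jnk1-/- lungs. Among all probes, 1.5% were lower and 2.2% higher in wild-type lungs, and 5.01% lower and 6.73% higher in jnk1-/- lungs. Of 8 erythroid precursor genes none passed, and of 11 thymus genes none passed in the wild type and 1 each was higher and lower in jnk1-/- lungs. The sums of the thymus genes were 1125 to 1475 in jnk1-/- controls and 845 to 899 in wild-type controls. Their medians overlapped, at 4.88 to 5.01 and 4.67 to 5.10. Between controls, Arpp21 alone of these 11 passed, as higher in jnk1-/- lungs (9.09%, against 4.06% of all probes that differed either way). The part of these cells in the differences of the cell cycle genes was not tested.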

How the data were processed

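Per the labels and the methods, the authors hybridised each mouse's lung RNA to a CodeLink UniSet I 20K array. They deposited log2 intensities of 19621 probes for each array, not yet on a common scale (array medians 4.98 to 6.37), and a normalized log2 table with a floor at 3.12. The sources used here do not say how background was treated. No quality flags were used. Groups come from the sample titles.

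For this report the 14 arrays were normalized pairwise by cyclic loess, and a floor was set at the 1st percentile (−0.63). Probes were named through the platform annotation and RefSeq symbols (15353 name 1 gene, 91 several, 4177 none). limma 3.58.1 in R 4.3.3 fitted 4 group means (lmFit, eBayes) with 6 contrasts, p-values were adjusted by Benjamini-Hochberg over every probe, and 0.05 was the threshold. Values of every array are given for members past the threshold and the next by unadjusted p, 12 in all, and for some of up to 4 genes named from each other list and contrast. Tested on simulated data with 200 changed probes, fewer than passed in the data, a log2 change of 1 was recovered for 16%, 14% and 38% of probes (wild type, jnk1-/-, mean effect) and a change of 2 for 59%, 60% and 74%. That each array is a separate animal comes from the study's methods, and p-values measure the spread between these arrays. The genes and lists were chosen with earlier results of these data known. matplotlib 3.10.9 (Python 3.11.15) drew the figures. Alternatives changed the normalization, value table, test, arrays, dim probes, floor, block, weights and replicates.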

Additional observations from a re-analysis of the deposited data

Results flagged for a closer look

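Nusap1 on jnk1-/- ventilated replicate 4 had a log2 intensity of 5.72, away from the other 3 ventilated jnk1-/- lungs, which lay between 6.63 and 6.68 (gap over range 0.957, above Dixon's critical value). The median of the 43 cell cycle genes on wild-type ventilated replicate 3 was 6.07, away from the other 3 arrays of its group by the same test (gap over range 0.852). Of 26 such groups tested, chance alone would mark about 1 in 20. Cenpf had ventilation effects of opposite sign, −0.77 in the wild type and 0.27 in jnk1-/- lungs. Every ventilated lung lay below its control mean in the wild type and above it in jnk1-/- mice, and the difference of 1.04 did not pass the test of the difference itself (adjusted p = 0.410 from limma).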

How the results depend on the processing

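Between 18 and 25 alternatives were run for each comparison. The number of the 43 genes that fell in wild-type lungs, 0 as reported, was 1 with limma's fast cyclic loess, in the authors' table and with the dimmest 25% of probes left out, and 2 with a floor at the 10th percentile and with array weights. In jnk1-/- lungs the 3 became 0 with the methods' t-test, in a fit of those groups alone and with close control arrays averaged, 6 without the dimmest 25%, 5 with the higher floor and 13 with array weights. In the mean effect the 7 became 13 without the dimmest 25%, 12 with the higher floor, 16 with array weights, 1 with close arrays averaged and 1 without wild-type control replicates 2 and 3 together (chosen after seeing the data), and 1 gene rose in the authors' table, without the dimmest 25% and with array weights. Between controls 1 gene was lower with the higher floor and with array weights, and 1 was higher with array weights. The cause was not tested.

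With 1 array left out at a time, the genes that fell numbered 0 to 6 in jnk1-/- lungs and 2 to 11 in the mean effect, those that rose in the mean effect 0 to 1, and those lower between controls 0 to 1. With the replicate number as a block, 1 gene fell in jnk1-/- lungs and 2 in the mean effect, and 0 in wild-type lungs. Over 19 pairs of same-numbered arrays the correlations of deviations lay between −0.05 and 0.08, so no strong shared signal was seen. The labels do not say whether same-numbered arrays were processed together. The median difference in each genotype and in the mean effect stayed below 0 in all alternatives. The methods' t-test and fits of single groups could not be applied to the mean effect or the difference of effects. Of 222 alternative values for the named cell cycle genes, 141 kept their call, 81 lost it and 0 turned. The 24.5% of values at the authors' floor limit what can be read for the dim genes.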
